A study of Mus musculus with 10 samples.

Results

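Immunity-related GTPases (IRG proteins) were examined in 10 B16 tumors through every probe set that the array annotation assigned to exactly 1 of 6 gene symbols, Igtp, Irgm1, Irgm2, Iigp1, Ifi47 and Tgtp1. The rule gave 6 probe sets of 5 genes, out of 34945 probe sets and 18193 genes with a single symbol. The 1 probe set that carries Tgtp1 is also annotated to Tgtp2, so Tgtp1 was left out. B16 is a transplantable mouse melanoma line. All samples were C57BL/6, and 5 tumors labelled wild type were compared with 5 labelled Bach2-deficient. The labels give no age, sex, time of growth or treatment, do not state which part of Bach2 was altered, and do not say whether the deficiency lay in the host, in the tumor cells or in both. Whole tumors were dissociated and their total RNA was hybridised, so each value mixes RNA of melanoma cells with that of every other cell present. Bach2 encodes a transcriptional repressor of lymphocytes, and the comparison asks how tumors differ when it is deficient. In such bulk RNA, fewer cells of a type and less RNA per cell cannot be told apart.

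IRG proteins are GTPases that interferon-γ strongly induces in mouse cells of many types, immune and non-immune. They gather on the vacuoles in which parasites and bacteria live and disrupt them. The effector class, which carries a GKS sequence in its nucleotide-binding loop, includes Iigp1 (Irga6) and Ifi47 (Irgd). The regulator class carries GMS in that place and includes Irgm1, Irgm2 and Igtp (Irgm3), which sit on the cell's own membranes and keep the effectors inactive there. Guanylate-binding proteins and the ATG8 conjugation machinery of autophagy work with them at the vacuole.

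Every measured IRG gene was higher in the Bach2-deficient tumors. The 5 genes rose by 2.66 to 5.04 on the log2 scale, with a median of 3.09, and all 5 passed an adjusted p of 0.05 in limma over the 18193 genes. All 6 probe sets also rose in the fit over all single-symbol probe sets. The background is broad: 16.3% of all genes and 14.1% of all probe sets rose, and the median change over all genes was -0.06. Size separates the members more than the call does, since 1.10% of all genes rose by as much as the least changed member or more. For all 5 genes every Bach2-deficient array lay above every wild-type array, which held for 11.2% of genes. The wild-type means of all 5 genes lay above 4.98, below which the dimmest 30% of genes lay.

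Promoter sequences are shown so that the members can be compared for short elements of the kind that interferon-activated factors recognise. Sequences of 110 bases, running from 120 to 11 bases before the annotated start, were taken from a table of RefSeq promoters (GRCm38.p6). They are shown for 4 of the 5 measured genes, and Iigp1 was left out of the promoter comparison. All 4 lie on chromosome 11, Igtp at chr11:58199436-58199545 and Irgm2 at chr11:58214857-58214966 on the plus strand, Irgm1 at chr11:48871431-48871540 on the minus strand, and Ifi47 at chr11:49076467-49076576 on the plus strand. Capitals mark matches to GAAANNGAA, a core that interferon regulatory factors bind, or to TTCNNNGAA, the gamma-activated site that STAT dimers bind.

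Igtp: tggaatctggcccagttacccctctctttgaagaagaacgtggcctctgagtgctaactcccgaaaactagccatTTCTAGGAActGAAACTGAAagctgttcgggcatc
Irgm2: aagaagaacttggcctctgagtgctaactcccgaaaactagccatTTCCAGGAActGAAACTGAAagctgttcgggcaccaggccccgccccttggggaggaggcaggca
Irgm1: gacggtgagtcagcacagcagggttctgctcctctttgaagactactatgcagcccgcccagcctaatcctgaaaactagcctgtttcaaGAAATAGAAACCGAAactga
Ifi47: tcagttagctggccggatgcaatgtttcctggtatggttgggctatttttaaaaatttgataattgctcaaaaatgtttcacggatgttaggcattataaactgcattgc

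Both strands of the 250 bases before each start were searched. Igtp and Irgm2 each held 1 match to TTCNNNGAA followed after a short spacer by 1 match to GAAANNGAA. In Igtp these began 45 and 34 bases before the start, and in Irgm2 75 and 64 bases before it. The 250-base stretches of these neighbouring genes were 90.2% identical over 215 aligned bases. Irgm1 held 2 matches to GAAANNGAA that overlap each other, beginning 30 and 24 bases before the start, and no match to TTCNNNGAA. Ifi47 held neither in this window, which says nothing of other starts or of more distant sequence. Over all 32851 promoter stretches in the table, 7.13% held GAAANNGAA, 7.02% held TTCNNNGAA and 0.752% held both. A match is a description of letters and not of binding.

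Iigp1, the effector GTPase that loads onto parasite vacuoles, changed most. Its brighter probe set, 1419042_at, read 5.09, 7.55, 5.90, 6.71 and 6.23 (log2) in wild-type replicates 1 to 5 and 10.92, 11.44, 11.36, 11.47 and 11.52 in Bach2-deficient replicates 1 to 5. The means were 6.30 ± 0.92 and 11.34 ± 0.24 (SD, n = 5 each), a rise of 5.04 (SE 0.38, 95% interval 4.20 to 5.88) or 32.99-fold, with a limma adjusted p of 8.84e-05. The groups were far apart, with 3.37 between the lowest Bach2-deficient and the highest wild-type array. Only 0.0440% of genes rose more.

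The second Iigp1 probe set, 1419043_a_at, gave the same direction with a wider spread. It read 4.24, 7.89, 5.98, 6.00 and 7.32 in wild type and 9.96, 10.87, 10.78, 11.01 and 11.03 in Bach2-deficient tumors. Its rise was 4.44 (SE 0.59, 95% interval 3.14 to 5.74; limma adjusted p = 0.000810 over all probe sets). Wild-type arrays alone spanned 3.66 on this probe set against 1.07 in the Bach2-deficient group, and the groups did not overlap.

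Ifi47, the other GKS-class gene measured, read 8.50, 10.44, 9.34, 9.62 and 9.69 in wild-type replicates 1 to 5. In the Bach2-deficient replicates it read 11.86, 12.39, 12.60, 12.59 and 12.31. It rose by 2.83 (SE 0.31, 95% interval 2.15 to 3.51), 7.12-fold, with a limma adjusted p of 0.000308. The gap between the groups, 1.41, was the narrowest of the 5 genes, and wild-type replicate 2 was the array nearest to the Bach2-deficient range.

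**Figure D1:**
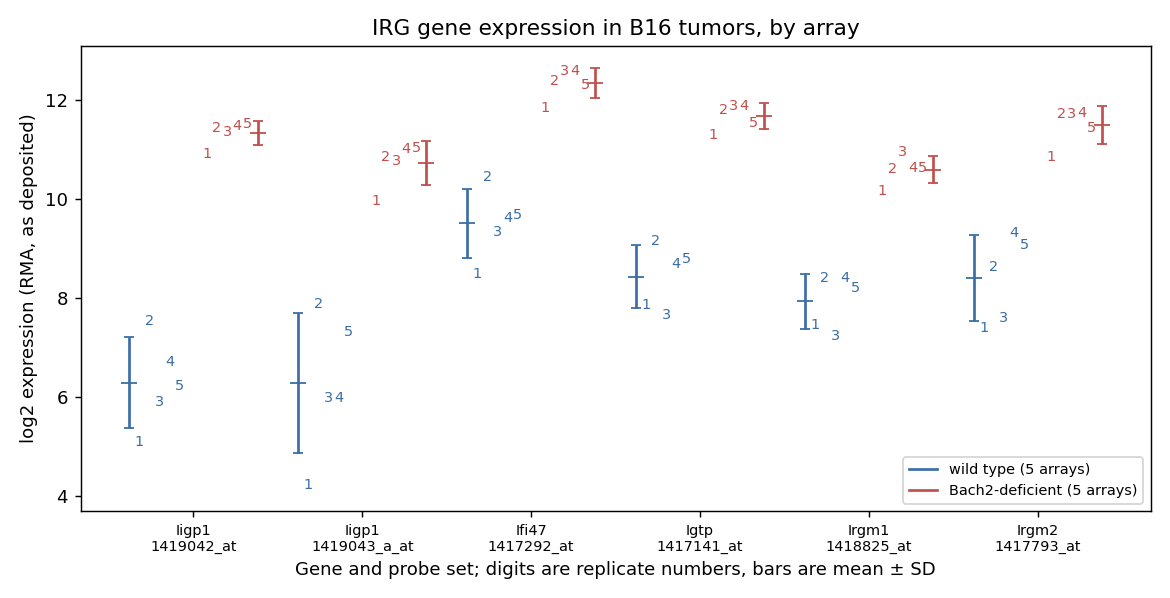
Log2 expression of the 6 IRG probe sets on each array, with replicate numbers as the plotted digits (wild type blue, Bach2-deficient red) and bars for mean ± SD of 5 arrays. The groups do not overlap for any probe set, wild-type replicates 1 and 3 are low throughout, and Bach2-deficient replicate 1 is the lowest of its group throughout.

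Among the regulators, Igtp (Irgm3), a GMS protein of the endoplasmic reticulum and lipid droplets, had the largest change. It read 7.87, 9.16, 7.66, 8.70 and 8.80 in wild-type replicates 1 to 5 and 11.30, 11.81, 11.88, 11.89 and 11.55 in the Bach2-deficient ones. The rise was 3.25 (SE 0.28, 95% interval 2.63 to 3.87), 9.49-fold, with a limma adjusted p of 0.000149. The groups were 2.14 apart.

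Irgm2, a regulator found at the Golgi, read 7.40, 8.64, 7.60, 9.32 and 9.07 in wild type and 10.87, 11.72, 11.72, 11.75 and 11.45 in Bach2-deficient tumors. It rose by 3.09 (SE 0.38, 95% interval 2.26 to 3.93), 8.54-fold, with a limma adjusted p of 0.000464. Wild-type replicates 4 and 5 were highest here, whereas replicate 2 was highest for the other 4 genes.

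Irgm1, a regulator of Golgi and lysosomal membranes, mitochondria and autophagy, read 7.46, 8.41, 7.24, 8.40 and 8.20 in wild type and 10.17, 10.62, 10.95, 10.63 and 10.64 in Bach2-deficient tumors. Its rise was 2.66 (SE 0.25, 95% interval 2.10 to 3.22), 6.31-fold, with a limma adjusted p of 0.000188. This was the smallest rise of the 5 genes, and 1.09% of genes rose more.

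**Figure D2:**
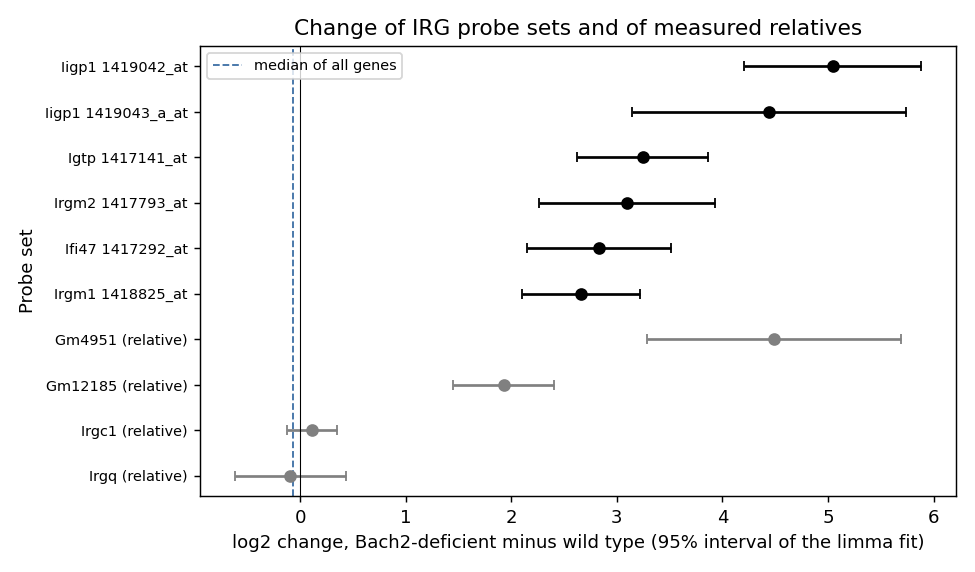
Log2 change (Bach2-deficient minus wild type) with the 95% interval of the limma fit for the 6 IRG probe sets (black) and for 4 relatives (grey), over 5 arrays a group; the dashed line is the median change of all genes, -0.06. The IRG probe sets lie between 2.66 and 5.04, Gm4951 and Gm12185 lie at 4.49 and 1.93, and the intervals of Irgc1 and Irgq include 0.

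The members did not all change by the same amount. For each of the 10 pairs of genes, the difference between their log2 values on an array was compared between the groups with an exact 2-sided permutation test, whose smallest possible p is 0.00794. Iigp1 rose more than each of the other 4 genes (exact p = 0.00794 and adjusted p = 0.0159 over the 10 pairs for each). The change of Irgm1 minus that of Iigp1 was -2.39, that of Irgm2 minus Iigp1 -1.95, that of Igtp minus Iigp1 -1.80, and that of Iigp1 minus Ifi47 2.21. Igtp rose more than Irgm1 by 0.59 (adjusted exact p = 0.0159). The other 5 pairs did not pass. For Igtp minus Irgm2, which lie side by side, the value was 0.15 (adjusted exact p = 0.532), and without wild-type replicate 4 -0.011. It was 0.26 for Irgm2 minus Ifi47 and -0.17 for Irgm1 minus Ifi47 (adjusted exact p = 0.485 for both). Igtp exceeded Ifi47 by 0.41 (adjusted exact p = 0.0529), a call that was made when wild-type replicate 1 was left out (0.53, adjusted exact p = 0.0132), and Irgm1 minus Irgm2 was -0.44 (0.113). The affinity and background of probe sets are not equal, so these sizes need not equal differences in RNA abundance.

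The lowest arrays, but not the highest, were shared by the 5 genes. In wild type, replicates 1 and 3 were the lowest pair for every gene, replicate 1 lowest for 3 genes and replicate 3 for 2. In the Bach2-deficient group, replicate 1 was lowest for 5 of 5 genes, while it was the lowest for 29.9% of all genes and for 77.5% of the genes that rose. The spread was larger in wild type for 5 of 5 genes, with SDs 1.99 to 3.78 times those of the Bach2-deficient group. Over all genes 66.6% had the larger SD in wild type, and among the genes that rose 60.3%. Differences in spread were not tested.

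Interferon-γ and cell type markers also varied between arrays, but not all in the order of the IRG genes. Ifng, which encodes the cytokine that induces IRG genes, read 4.00, 6.72, 3.46, 6.23 and 4.34 in wild-type replicates 1 to 5 and 10.04, 11.02, 11.10, 11.28 and 10.54 in Bach2-deficient ones. Replicate 1 was the lowest Bach2-deficient array, as for all 5 IRG genes, and replicate 2 the highest wild-type array, as for 4 of them (not Irgm2). The summed signal of 9 T cell markers (log2 of the sum) was lowest in wild-type replicates 1 and 3 (10.4 and 11.3) and ran up to 12.3 in that group. In the Bach2-deficient group it ran from 13.7 in replicate 1 to 14.9. The dendritic cell sum was also lowest in wild-type replicates 1 and 3 (9.14 and 9.26). The macrophage sum was lowest in wild-type replicates 1 and 2 (13.6 and 14.1). The NK cell sum was lowest in wild-type replicates 1 and 5 (7.78 and 8.38), with replicate 3 at 9.06. In the Bach2-deficient group these sums were all lowest in replicate 1 (10.2, 14.6 and 11.2). The summed signal of 7 melanocyte markers went the other way in replicate 1, which had the highest value of the Bach2-deficient group at 15.9, against 15.3 to 15.6 in the other 4 and 15.7 to 15.9 in wild type.

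**Figure D3:**
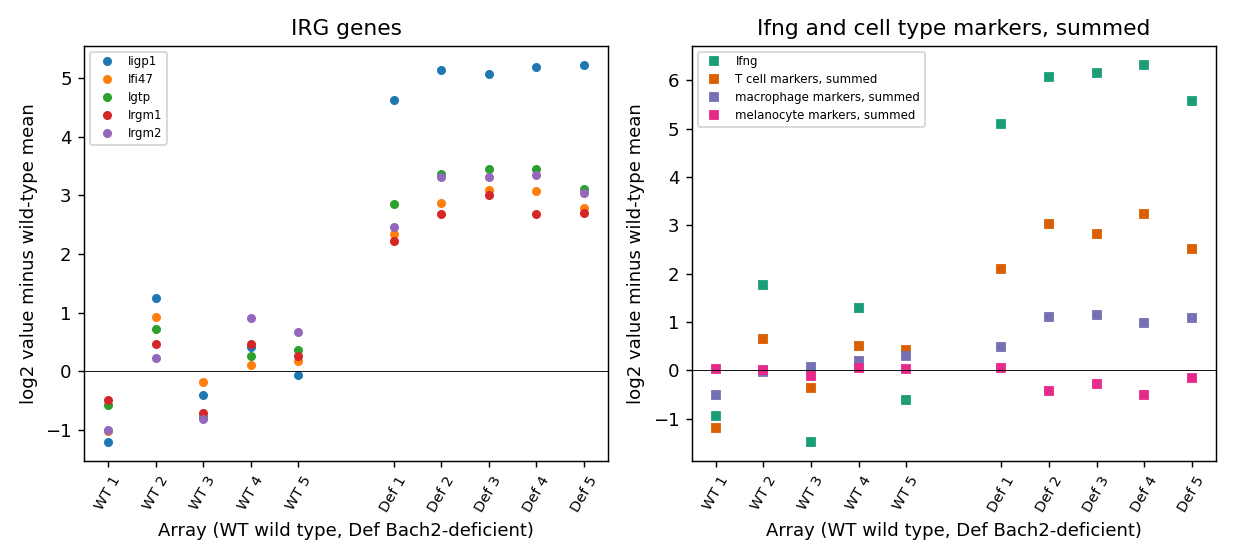
Log2 values minus the wild-type mean on each array, for the 5 IRG genes (left) and for Ifng and the log2 summed signal of T cell, macrophage and melanocyte markers (right). All IRG genes, Ifng and the T cell markers are higher on every Bach2-deficient array, lowest of that group on replicate 1, while the melanocyte markers are highest of that group on replicate 1.

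The marker lists set the IRG genes in the makeup of the tumors. Over all genes, 16.3% rose. Of 9 measured T cell markers all 9 rose, with a median change of 2.71, and of 5 NK cell markers all 5 rose, with a median of 3.51. Of 8 macrophage and monocyte markers 6 rose (median 1.42, summed signal 13.6 to 14.5 in wild type and 14.6 to 15.3 in Bach2-deficient tumors), and of 6 dendritic cell markers 4 rose (median 1.16). With the Xist term, and with the melanocyte covariate, 3 macrophage and 2 dendritic cell markers rose. Of 7 melanocyte markers 2 fell, Tyr and Dct, with a median of -0.28, beside 12.4% of all genes that fell. The 2 falls were unstable, since 0 to 5 of the 7 fell over the alternative fits: 0 without Bach2-deficient replicate 2 and 5 without replicate 1. All 7 were bright in both groups, with the lowest means for Sox10, 11.05 in wild type and 10.69 in Bach2-deficient tumors. Of 6 fibroblast markers 3 fell (median -0.39) and of 3 red cell markers all 3 fell (median -4.16), but with the melanocyte covariate 1 of each list fell. Among 6 endothelial markers Pecam1, which leukocytes also carry, rose and Cdh5 fell (1 to 2 rose and 0 to 2 fell over the alternative fits), and 4 of the 6 were in the dimmest 30% of genes. No marker of 4 B cell and 4 keratinocyte markers passed. All 4 keratinocyte markers were in the dimmest 30% of genes. The summed B cell signal was uneven, 7.02 to 10.9 in Bach2-deficient tumors and 8.17 to 9.14 in wild type. The part of cell makeup in the IRG changes was not tested. With the mean of the melanocyte markers in the fit as a covariate, the IRG rises were 4.89 for Iigp1, 3.11 for Igtp and 2.85 for Irgm2. They were 2.58 for Ifi47 and 2.57 for Irgm1, and all 5 passed. That covariate holds bright melanocyte genes and no leukocyte marker, so this fit cannot decide the part of cell makeup.

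Other features of the samples divided the groups as well. Bach2 read 5.93 to 7.78 in wild type and 4.96 to 6.37 in Bach2-deficient tumors on its brightest probe set, with overlap, and its change of -1.07 had a limma adjusted p of 0.0551. This call is borderline, since Bach2 fell in 5 of 19 alternative fits. They were the mean of its probe sets (-0.82, limma adjusted p = 0.0240), the melanocyte covariate (-1.66, 0.0427), dim genes left out (-1.07, 0.0428), repeated quantile normalization (-1.14, 0.0496) and the omission of wild-type replicate 2 (-1.33, 0.0195). The poly-A controls, bacterial RNAs added before labelling, read 11.91 to 12.35 on wild-type and 9.87 to 10.12 on Bach2-deficient arrays, so a technical difference and genotype cannot be told apart. Xist, which marks female cells, was at 11.4 or above in all wild-type tumors and in Bach2-deficient replicate 2 (11.9), and at 6.61 or below in the other 4 Bach2-deficient tumors. The Y-linked gene Eif2s3y read 10.5 to 10.9 in those 4 tumors. It read 4.50 in Bach2-deficient replicate 2 and 5.07 to 7.68 in wild type. On that Xist-high replicate the IRG genes exceeded the highest wild-type array by 1.95 for Ifi47 to 3.89 for Iigp1. With Xist status (high or low) added to the model, the IRG changes were 2.67 for Irgm1 to 5.14 for Iigp1. Only Bach2-deficient replicate 2 shared its Xist status with the wild-type tumors. The group change in every fit with the Xist term is therefore that tumor set against the wild-type mean. Such a fit cannot separate Xist status from genotype beyond that tumor.

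Relatives of the IRG genes were divided. Of 16 listed symbols 4 had a probe set of their own, 2 of which rose, beside 16.3% of all genes. Gm4951, an IRG gene of the Iigp1 group, read 5.53, 7.90, 4.57, 5.92 and 7.06 in wild type and 9.99, 10.84, 10.78, 11.08 and 10.73 in Bach2-deficient tumors. It rose by 4.49 (SE 0.54, limma adjusted p = 0.000451), and its groups did not overlap. Gm12185, an IRG-like gene model, rose by 1.93 (SE 0.22, limma adjusted p = 0.000340), from 5.24 ± 0.33 to 7.17 ± 0.41. Irgc1, the testis-expressed relative, changed by 0.11 (limma adjusted p = 0.462) at means of 4.64 and 4.75, under the level of the dimmest 30%. Irgq, a distant relative, changed by -0.09 (SE 0.24, limma adjusted p = 0.790), or by 0.063 without wild-type replicate 5, and its 2 probe sets pointed in opposite directions.

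Upstream, the interferon-γ signalling list rose broadly, beside 16.3% of all genes that rose. Of 16 measured genes 14 rose, with a median of 1.91, and 9 did so with the Xist term. Ifng rose by 5.84 (SE 0.60), though its wild-type mean of 4.95 lay under 4.98, so that size is not exact. The receptor chain gene Ifngr1 rose by 1.76 (SE 0.21, limma adjusted p = 0.000456), from 8.04 ± 0.27 to 9.80 ± 0.44 (n = 5 each). Its partner Ifngr2 changed by 0.40 (SE 0.23, limma adjusted p = 0.218), but passed without Bach2-deficient replicate 1 (0.61, limma adjusted p = 0.0196) and with array weights (0.58, limma adjusted p = 0.0423). The receptor kinase genes Jak1 and Jak2 rose by 1.56 and 1.25, but Jak1 did not pass with the melanocyte covariate (1.15, limma adjusted p = 0.0633). Irf1 and Irf8, transcription factors that bind interferon response elements, rose by 3.24 and 2.94, and Batf2, another interferon-induced factor, by 3.40. Socs1, the feedback inhibitor of the kinases, changed by 0.37 (limma adjusted p = 0.142).

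The type I interferon list, which shares targets with interferon-γ, had a smaller median change. It also held Ifnlr1 and Il10rb, receptor chain genes of interferon-λ. Stat2 and Irf9, which type I signalling also uses, were counted in the interferon-γ list, where they rose by 2.64 and 1.66. The medians thus depend on how genes were assigned and do not compare the strength of the pathways. Of the 9 genes of the type I list 6 rose, with a median of 0.73, beside 16.3% of all genes. Fewer rose with the Xist term, and 3 with the melanocyte covariate. Fewer of all genes rose in those fits too, 1021 with the covariate against 2962 in the main fit. Irf7, a factor that amplifies interferon responses, rose by 2.46 and Usp18, a feedback inhibitor of the type I receptor, by 1.71. Ifnb1, the interferon-β gene, changed by 0.41 (limma adjusted p = 0.332), and the shared receptor chain gene Il10rb by 0.29 (limma adjusted p = 0.107). Il10rb passed with Bach2-deficient replicate 1 omitted (0.38, limma adjusted p = 0.0275) and with array weights (0.34, limma adjusted p = 0.0371).

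The partner GTPases moved with the IRG genes. Of 11 listed guanylate-binding protein genes 6 were measured. All 6 rose, with a median of 4.06, beside 16.3% of all genes. Their groups did not overlap, and every Bach2-deficient array lay above every wild-type array for 11.2% of all genes. Gbp2 rose by 4.94 (SE 0.45), from 7.32 ± 0.97 to 12.26 ± 0.56 (n = 5 each). Gbp2b, also named Gbp1, rose by 5.68, from a wild-type mean of 3.26 that lay under the level of the dimmest 30%, so that size is not exact.

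The autophagy arm did not show such a shift, beside 16.3% of all genes that rose. Of 11 genes of ATG8 conjugation, which attaches ATG8 proteins to membranes and is needed for IRG proteins to reach vacuoles correctly, 1 rose, with a median of 0.14. That gene, Atg3, the conjugating enzyme for ATG8, rose by 0.54 (limma adjusted p = 0.00253), but not as the mean of its probe sets (0.55, limma adjusted p = 0.149) or with the Xist term (0.53, limma adjusted p = 0.0948). Atg5 changed by 0.84 (limma adjusted p = 0.111) but reached 1.09 (limma adjusted p = 0.0359) once wild-type replicate 5 was omitted. It also passed as the mean of its probe sets (0.52, limma adjusted p = 0.0200) and with array weights (0.86, limma adjusted p = 0.0464). Map1lc3a, an ATG8 gene, changed by -0.52 (limma adjusted p = 0.119). Map1lc3a passed without Bach2-deficient replicate 1 (-0.70, limma adjusted p = 0.0207) and with array weights (-0.67, limma adjusted p = 0.0333). Of 9 genes for ubiquitin ligases and adaptors found at such vacuoles, 7 rose, with a median of 0.57. Fewer rose with the Xist term, and 3 with the melanocyte covariate. Fewer of all genes rose in those fits too, 1021 with the covariate against 2962 in the main fit. The ligase genes Rnf213 and Trim21 rose by 1.72 and 1.52. The adaptor genes Nbr1 (0.26, limma adjusted p = 0.156) and Sqstm1 (0.0031, limma adjusted p = 0.987) did not pass, though Nbr1 did when wild-type replicate 4 was omitted (0.36, limma adjusted p = 0.0255).

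**Figure D4:**
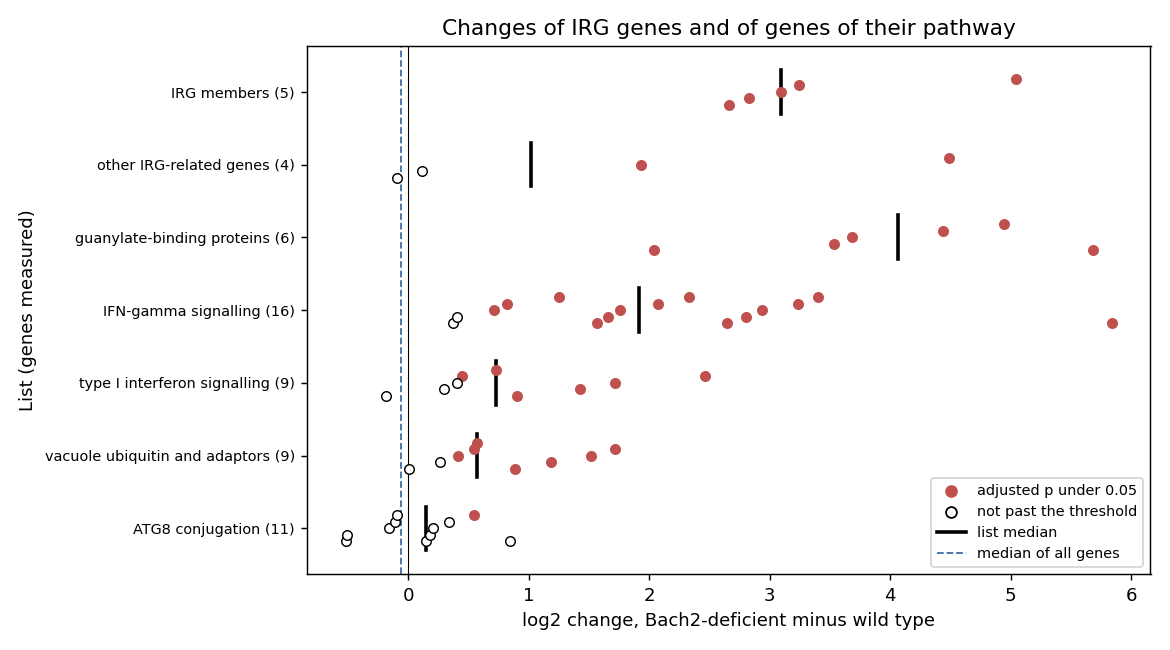
Log2 change (Bach2-deficient minus wild type) of each measured gene of 7 lists, with filled points for limma adjusted p under 0.05, bars for list medians and a dashed line for the median of all genes. The medians run from 4.06 for the guanylate-binding proteins and 3.09 for the IRG genes to 0.14 for ATG8 conjugation.

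Most genes beside the IRG genes in the genome were not called, as was so for all genes, of which 16.3% rose and 12.4% fell. The nearest 5 measured protein-coding genes on either side were taken in RefSeq order. Around Igtp and Irgm2, which are adjacent, 2 of 10 neighbours rose, Larp1 by 0.43 and Zfp672 by 0.51, and 0 fell. Around Irgm1 and Ifi47, 3 of 11 rose and 1 fell. The largest rise there was that of Gm12185, which lies between them, followed by Timd4 (1.27) and Mgat1 (1.14), while Trim7 fell (-1.70). Around Iigp1, 3 of 10 rose and 1 fell, with Gm4951 next to Iigp1 at 4.49, Smim3 at 1.18, Rbm22 at 0.60 and Chsy3 at -0.91. Apart from Gm4951, no neighbour rose by as much as the smallest IRG rise, a size that only 1.10% of all genes reached.

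Profiles most like those of the IRG genes were sought by the root mean square (RMS) difference over the 10 arrays after each gene was centred on its own mean. This measure rests mainly on the size of the change between the groups. Nearest to Igtp were Il18r1, an interleukin-18 receptor chain (RMS 0.224), and Tap1, the peptide transporter subunit (0.259). The change of Tap1, 3.04 on its brightest probe set, was 0.85 as the mean of its probe sets, so its likeness rests on that probe set. Nearest to Irgm1 were AI504432 (0.144) and Phf11d (0.195). Irgm2 lay nearest to the leukocyte adhesion genes Itgal (0.223) and Selplg (0.227), and Ifi47 to the T cell receptor complex gene Cd3d (0.194) and Tap1 (0.203). Iigp1 lay nearest to the granzyme gene Gzmb (0.443) and the chemokine gene Cxcl9 (0.452), which changed by 5.25 and 5.33. Among the IRG genes themselves the closest pair was Irgm1 and Ifi47 (0.324), with Igtp 0.330 from both Irgm1 and Irgm2, and Iigp1 was at least 0.963 from every other member.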

How the data were processed

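RNA of 10 tumors (5 a group, from the sample titles) was read on Affymetrix Mouse430_2 arrays. The deposited values are log2 expression made by the authors, with RMA and Partek named per the submitters' processing notes, versions not given in the sources used here. RMA corrects background and quantile-normalizes, which tends to shrink changes of dim genes. Values ran from 1.99 to 14.4 and were used as deposited. The number of arrays limits the precision, and no detection calls were used. The labels do not tie the tumors to separate animals. The p-values therefore reflect the spread of these 5 against 5 samples, part of which may be technical.

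Of 45101 probe sets, 64 were controls, 34945 had 1 symbol, 932 several and 9160 none in the platform annotation; 34741 of the single-symbol ones matched a RefSeq gene ID (GRCm38.p6) and 0 symbols changed. For a gene with several probe sets, the one with the highest mean was taken. limma 3.58.1 in R 4.3.3 (lmFit, eBayes, 2-sided, genotype as single factor) was fitted over 18193 genes, and separately over the probe sets, with Benjamini-Hochberg adjustment; "rose" and "fell" mean an adjusted p under 0.05. The fit was tested on simulated data. Pairs of members were compared by exact permutation of the arrays, and promoters were aligned with Biopython 1.88 (match 1, mismatch -1).

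Members and lists were chosen with earlier results of these data known. Named genes were all members, fixed interferon genes, every measured IRG relative, the 2 called and 2 uncalled genes with the largest changes of each other list, and the 2 nearest profiles per member; neighbours and further lists' members were named after their values were seen. The labels tie same-numbered arrays of the groups by number only. The deviations of such arrays correlated at 0.01 to 0.32, and 2 arrays correlated best with their own number. Correlations of this size cannot decide whether same-numbered arrays share a batch.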

Additional observations from a re-analysis of the deposited data

Results flagged for a closer look

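Some values stood apart from the other 4 of their group by Dixon's test at the 95% level, which flags about 1 in 20 groups by chance. Of 84 groups examined over the members and the named genes, 11 were flagged, and 10 of these were a low value of Bach2-deficient replicate 1. For Iigp1 that array read 10.92 against 11.36 to 11.52 in the others on 1419042_at, and 9.96 against 10.78 to 11.03 on 1419043_a_at. The same array was low for Gbp2b (7.00 against 9.21 to 9.85), Batf2 (7.77 against 8.98 to 9.11) and Jak2 (11.3 against 12.0 to 12.1). It was low for Gzmb (11.4 against 12.5 to 13.0), Cxcl9 (11.00 against 11.72 to 11.92) and AI504432 (9.77 against 10.5 to 10.7). It was also low for Ifngr2 (7.70 against 8.55 to 8.88) and Rnf213 (12.0 against 12.6 to 12.8). Trim21 was low in wild-type replicate 1, at 9.55 against 10.2 to 10.5.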

How the results depend on the processing

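All 5 IRG genes passed in each of 19 alternative fits and all 6 probe sets in each of 18, in the same direction. Over the gene fits the rises ran from 4.74 to 5.36 for Iigp1, 3.05 to 3.43 for Igtp, 2.84 to 3.32 for Irgm2, 2.58 to 3.06 for Ifi47 and 2.48 to 2.77 for Irgm1, and the highest limma adjusted p was 0.0260 (Irgm2, Xist term), or 0.0433 over the probe sets (1419043_a_at, Xist term). With the replicate block all 5 genes passed, and no call of the 36 other named genes changed, while 1 melanocyte marker fell and 2 endothelial markers rose and 2 fell. With the Xist term and with the melanocyte covariate, all genes called numbered 1417 and 1497, those that rose 1030 and 1021, and those that fell 387 and 476. With 1 array left out, genes called ranged from 3658 to 5925, those that rose from 2270 to 3120 and those that fell from 1388 (without Bach2-deficient replicate 2; 1447 without replicate 4) to 2807. With the Xist term 9 interferon-γ, 3 type I, 3 ubiquitin and 0 ATG8 conjugation genes rose, and with the covariate 3 type I and 3 ubiquitin genes. ATG8 conjugation genes that rose numbered 2 with array weights and 1 to 2 with an array left out. The cause of these shifts was not tested, but the Xist fit sets Bach2-deficient replicate 2 alone against the wild-type arrays. Sqstm1, near 0, turned to -0.0076 with median centring, -0.058 with repeated quantile normalization, -0.16 as the mean of its probe sets, -0.056 under array weighting and -0.024 given the Xist term, and ranged from -0.065 to 0.045 with an array left out. Irgq turned to 0.010 without wild-type replicate 4 and 0.063 without replicate 5, with a range of -0.24 to 0.063 over single omissions. The Igtp and Irgm2 difference ranged from -0.011 to 0.27 with an array left out, and that of Igtp and Ifi47 from 0.27 to 0.53.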
